A study of Mus musculus with 12 samples.

Results

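Adrenomedullin and endothelin are secreted peptides that act on blood vessels, and the 9 genes described here encode these ligands, their receptors and an enzyme that matures endothelin. Adrenomedullin, the product of Adm, relaxes vessels and acts on the calcitonin receptor-like receptor (Calcrl). That receptor needs a receptor activity-modifying protein as a partner, and Ramp1, Ramp2 and Ramp3 encode these partners. Endothelin-1 (Edn1) constricts vessels, is released from its precursor by the endothelin-converting enzyme Ece1, and binds the receptors Ednra and Ednrb. In liver, endothelin is known for contracting stellate cells around the sinusoids, and Adm is known in many tissues as a target of the hypoxia-inducible factors. All 9 genes were found in the table of 45706 genes, each on a single row. They were named from knowledge of these pathways and were also chosen on measured values, because the rise of Adm in hypoxia in these same libraries was part of the choice. These genes and the other gene lists used below were chosen with earlier results of these data known. No p-value given here therefore comes from genes chosen without sight of the data. For the 9 members the hypoxia contrasts are therefore given as a description with no test, and so are all contrasts of Adm. The difference between the hypoxia responses is tested for the other members, but it is built from those same contrasts.

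The RNA came from the mouse cell line BN1, labelled as immortalized hepatoblastoma cells with the genotype Cdkn2a KO. BN1 was derived from a tumor raised in FVB/N mouse liver by mutant β-catenin and mutant NRF2 together with Crispr targeting of Cdkn2a. The cells carried EGFP under the promoter of Tie2 (Tek), as pooled stable clones. All 12 libraries share this background, so the data describe a single line with a single reporter. Unsorted cells were kept in normoxia at 21% oxygen (UN) or in hypoxia at 1% oxygen for 2 days (UH). Sorted cells were those with the highest EGFP after 2 days of hypoxia. They were expanded for about 10 days in normoxia (SN), and part of them returned to 1% oxygen for 2 days (SH). Each group had 3 libraries, which the study describes as independent replicas. Whether each sorted library came from a sort of its own is not stated, so the tests may not measure the spread between sorts. Values are TPM (transcript levels scaled for transcript length and to a common library total), which keep no record of sequencing depth, so the depth is unknown. Sorted and unsorted cells also differ in earlier hypoxia and in days of expansion, and these cannot be told apart.

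The oxygen labels were checked on 10 hypoxia response genes. Of these, 9 passed the test as higher in UH than in UN and 9 as higher in SH than in SN. Ndrg1, a stress gene used as a hypoxia marker, measured 50.3, 122 and 114 TPM in UN, 1063, 1096 and 1146 in UH, 79.2, 78.1 and 111 in SN, and 1081, 1073 and 802 in SH. For Ndrg1 all hypoxia libraries lay above all normoxia libraries. The test was limma on log2(TPM + 1) over the 18909 genes with a mean of at least 0.1 TPM. A gene is called when its Benjamini-Hochberg adjusted p over those genes is under 0.05 and its absolute log2 fold change exceeds 1, a scale that understates changes of genes near 1 TPM or lower.

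UN replicate 1 had the lowest correlations with its own group. Its correlation over genes was 0.978 with replicate 2 and 0.977 with replicate 3, while those correlated at 0.990 with each other. It held more mesenchymal transcripts, with Acta2 at 845 TPM against 172 and 162, and Col3a1 at 1960 TPM against 222 and 173, although Pdgfra was at 80.4 TPM against 168 and 176. It held fewer Dlk1 transcripts, at 13.5 TPM against 83.8 and 78.7. Of the 10 hypoxia markers it was the highest of its group in 2, Car9 (0.961 TPM against 0 and 0) and Slc2a1 (48.8 TPM against 31.0 and 31.5). It was the lowest in 5, such as Ndrg1, and between the others in 3. Several results are given with and without this library. SH replicate 3 also differed from its group, with correlations of 0.984 and 0.985 against 0.989 between the others, 4.68% of its TPM from mitochondrial genes against 2.94% and 2.66%, and Acta2 at 9.43 TPM against 1.59 and 1.25. The mitochondrial share was 7.55% in UN replicate 1 against 5.18% and 5.56% in replicates 2 and 3. It was 1.67%, 2.13% and 2.53% in UH and 8.38%, 7.64% and 8.27% in SN, so it also differed between groups. Its part in the group differences was not tested. Among 12 endothelial markers, Pecam1, Cdh5, Kdr, Tie1, Emcn, Cldn5 and Erg reached at most 0.484 TPM in any library, so these defining markers were at or near 0. Others of the 12 were expressed, with Flt1 at up to 28.0 TPM, Egfl7 at up to 11.4 TPM, Esam at up to 8.66 TPM and Vwf at up to 1.56 TPM, and Flt1, Vwf and Esam were called higher in SH than in SN. Of these calls, that of Vwf (1.02) ended without SH replicate 3 (0.93), and those of Vwf and Flt1 (1.06) ended with quantile normalization (0.83 and 0.78). Flt1 was also called higher in UH than in UN, from a mean of 2.52 TPM to 23.0 TPM, against 1.33 TPM in SN and 3.86 TPM in SH. Egfl7 was called lower in sorted cells at both oxygen levels and Flt1 in hypoxia, while Tek was called higher in both and Esam in hypoxia. Tek, the reporter's own gene, was at 2.69, 2.70 and 2.07 TPM in SN and at 0.13, 0.12 and 0.14 TPM in UN. Of the hepatocyte markers, Ttr and Apoa1 stayed below 1 TPM in every library, while Krt18 ranged from 63.5 to 157 TPM.

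Adm, the adrenomedullin gene on chr7:110627661-110629820 (+, GRCm38, GENCODE M21), was the member with the widest range. In UN it measured 22.2, 1.45 and 1.22 TPM, and in UH 132, 128 and 130 TPM. In SN it measured 1.12, 0.865 and 0.507 TPM, and in SH 30.6, 30.6 and 8.43 TPM. Every UH library lay above every other library, and every SH library lay above every SN library. The UN and SH libraries overlapped, but only through UN replicate 1, and SH replicate 3 was the lowest of its group. The mean was 8.30 ± 12.1 TPM in UN, 130 ± 1.88 in UH, 0.831 ± 0.308 in SN and 23.2 ± 12.8 in SH (SD, n = 3). The level in UH exceeded that of 94.3% of the genes tested, and the level in SN that of 31.1%.

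As a description of the values that chose it, Adm differed by 4.71 (SE 0.75) on the log2 scale between UH and UN, and by 3.54 (SE 0.75) between SH and SN. Of the 18909 genes, 19 had a higher log2 fold change in UH against UN and 36 had a higher one in SH against SN. Without UN replicate 1 the first difference was 5.81. The response in SH and SN minus that in UH and UN was -1.16 (SE 1.06), or -2.27 without that library.

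Sorted and unsorted cells were compared within each oxygen level. In hypoxia Adm was lower in sorted cells, with a log2 difference of SH from UH of -2.63 (SE 0.75), or -2.05 without SH replicate 3. The mean in UH was 5.61 times that in SH. In normoxia SN differed from UN by -1.47 (SE 0.75), or by -0.37 without UN replicate 1. All 4 groups had a part in the values that chose Adm, so these differences too are described with no test.

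**Figure D1:**
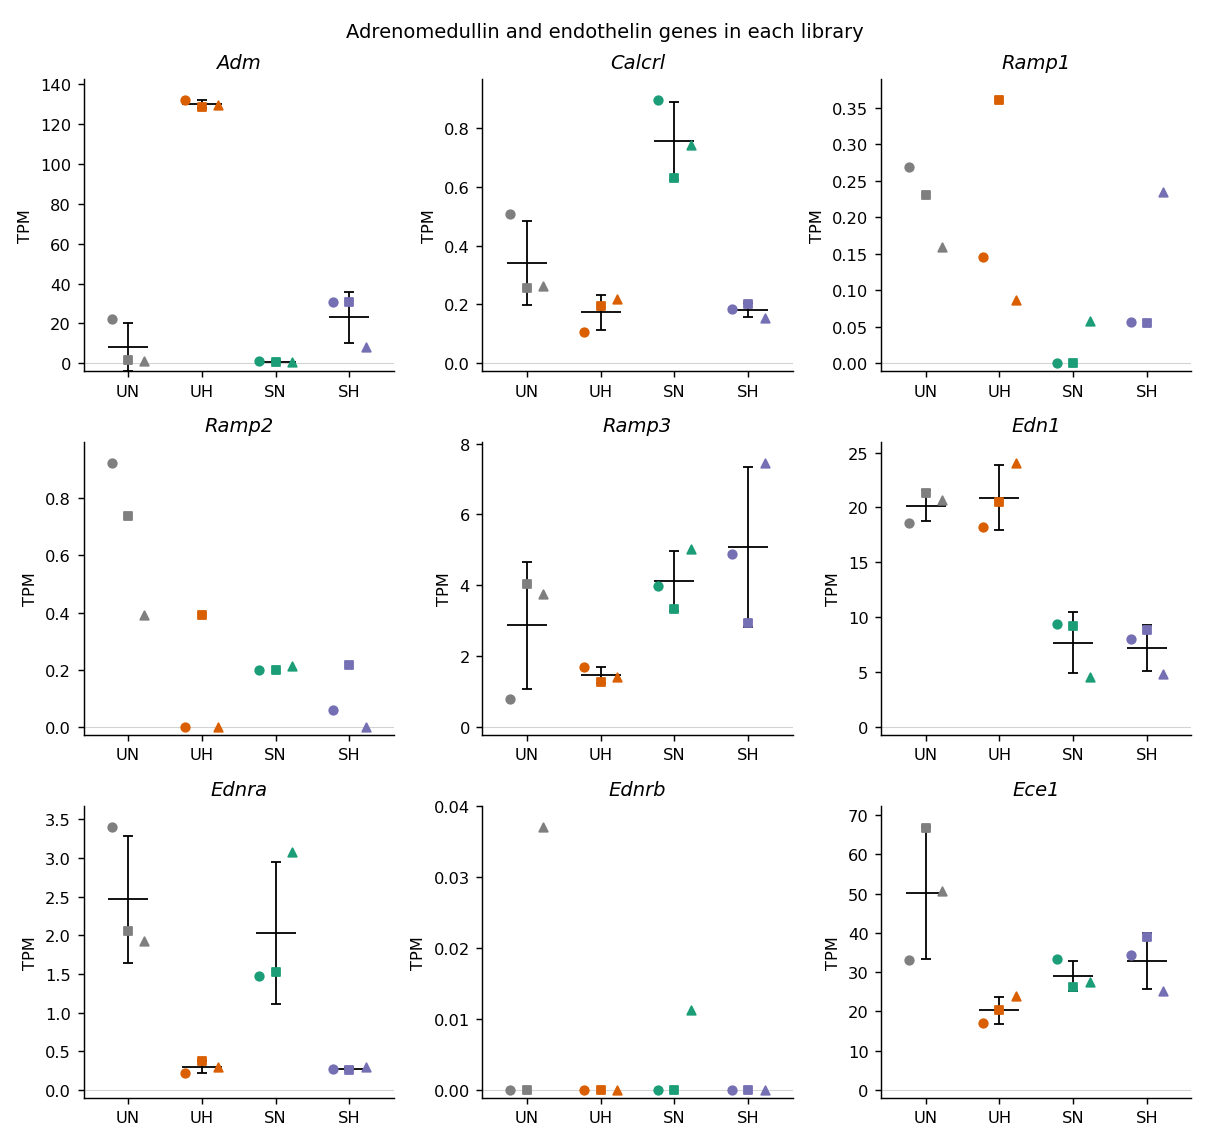
TPM of each of the 9 genes in the 12 libraries, by group (x axis) on a linear axis of its own for each gene; circles, squares and triangles are replicates 1, 2 and 3, and bars show the mean and SD where no library was listed at 0. Adm is near 130 TPM in UH, Edn1 is near 20 TPM in both unsorted groups and below 10 TPM in both sorted groups, and Ednrb is at or near 0 throughout.

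Calcrl, the receptor through which adrenomedullin signals, was scarce in every group. It measured 0.507, 0.256 and 0.263 TPM in UN, 0.107, 0.195 and 0.218 in UH, 0.894, 0.629 and 0.741 in SN, and 0.183, 0.203 and 0.156 in SH. The SN libraries were all above the UN libraries, and both normoxic groups were above the hypoxic groups. SN differed from UN by 0.39 (SE 0.11, limma adjusted p = 0.0138), short of the required size of 1. SH differed from UH by 0.01 (SE 0.11, limma adjusted p = 0.960). The hypoxia differences, described only, were -0.19 (SE 0.11) in unsorted cells, or -0.10 without UN replicate 1, and -0.57 (SE 0.11) in sorted cells. With the pseudocount of 0.1 they were -0.67 and -1.60, the second past the thresholds, and with quantile normalization the second was -0.86.

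Of the 3 partners of this receptor, Ramp3, which makes it an adrenomedullin receptor, was the most abundant per transcript length in 11 of the 12 libraries. In UN replicate 1 Ramp2, at 0.923 TPM, exceeded it. Ramp3 measured 0.785, 4.04 and 3.76 TPM in UN, 1.70, 1.25 and 1.39 in UH, 3.99, 3.34 and 5.02 in SN, and 4.88, 2.92 and 7.45 in SH. Every SH library lay above every UH library, and the UN libraries spanned the UH range because replicate 1 was low. Ramp3 was called higher in SH than in UH, with a log2 fold change of 1.25 (SE 0.37, limma adjusted p = 0.0187). This call ended without UH replicate 2 (1.19, limma adjusted p = 0.0581), without SH replicate 1 (1.24, 0.0541) or without SH replicate 3 (0.98, 0.0775), against a lowest p of 0.00222 over the alternatives. Of these, only leaving out SH replicate 3 also took the size under 1. SN and UN differed by 0.54 (SE 0.37, limma adjusted p = 0.307), or by 0.05 without UN replicate 1. The described hypoxia differences were -0.52 (SE 0.37) in unsorted cells, or -1.004 without that library, and 0.19 (SE 0.37) in sorted cells. The first was -0.26 without UN replicate 2 and -0.28 with scaling by the median of ratios. The second ran from -0.0769 without SH replicate 3 to 0.48 without SH replicate 2, so its sign is not settled. The difference between these responses, 0.71 (SE 0.53, limma adjusted p = 0.355), was not called, but without UN replicate 1 it was, at 1.20 (limma adjusted p = 0.0316, against a highest value of 0.683 over the alternatives).

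Ramp1, the partner that makes Calcrl a receptor for calcitonin gene-related peptide, and Ramp2, the other adrenomedullin partner, were below 1 TPM in all 12 libraries. Ramp1 measured 0.269, 0.230 and 0.159 TPM in UN, 0.145, 0.360 and 0.0864 in UH, and 0.0568, 0.0551 and 0.235 in SH. In SN it was listed at 0 in replicates 1 and 2 and at 0.0575 in replicate 3. Ramp2 measured 0.923, 0.740 and 0.391 TPM in UN and 0.199, 0.199 and 0.211 in SN, with the UN libraries all above the SN libraries. In UH it was listed at 0 in replicates 1 and 3 and at 0.392 in replicate 2, and in SH it measured 0.0598, 0.216 and 0. Neither gene was called in SN against UN or in SH against UH. Ramp2 differed by -0.47 (SE 0.15, limma adjusted p = 0.0334) in SN against UN, short of the required size. With the pseudocount of 0.1 that value was -1.31, again without a call. With the pseudocount of 0.1, however, Ramp1 was called lower in SN than in UN (-1.44, limma adjusted p = 0.0291), against -0.26 with the pseudocount of 1. The hypoxia differences of Ramp2, described only, were -0.58 (SE 0.15) in unsorted and -0.14 (SE 0.15) in sorted cells. Those of Ramp1 were -0.03 (SE 0.11) and 0.13 (SE 0.11). The pseudocount of 0.1 gave -2.14, past the thresholds, and -0.82 for Ramp2, and -0.19 and 0.79 for Ramp1. Ramp2 shares its strand and part of its span with Vps25, so its reads are uncertain at such levels. Adm, Ramp3, Edn1, Ednra and Ece1 each overlap a gene annotated on the other strand. The libraries were stranded, and whether the counting used strand is not given in the sources used here. Ramp3 made up 39.7% of the summed TPM of the 3 partners in UN replicate 1 and between 62.5% and 97.7% in the other libraries.

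Edn1, the endothelin-1 gene on chr13:42301476-42307990 (+, GRCm38, GENCODE M21), separated sorted from unsorted cells at both oxygen levels. In UN it measured 18.6, 21.3 and 20.6 TPM and in UH 18.2, 20.5 and 24.0 TPM. In SN it measured 9.33, 9.17 and 4.49 TPM and in SH 7.96, 8.81 and 4.79 TPM. Every unsorted library lay above every sorted library, while UN overlapped UH and SN overlapped SH. The means were 20.2 ± 1.43 TPM in UN, 20.9 ± 2.93 in UH, 7.66 ± 2.75 in SN and 7.19 ± 2.12 in SH (SD, n = 3).

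Edn1 was called lower in SN than in UN, with a log2 fold change of -1.34 (SE 0.25, limma adjusted p = 0.00172), and the UN mean was 2.63 times the SN mean. It was also called lower in SH than in UH, at -1.45 (SE 0.25, limma adjusted p = 0.000823), with a UH mean 2.91 times that of SH. Both calls held under all 20 alternatives, including those without UN replicate 1. The hypoxia differences, described only, were 0.04 (SE 0.25) in unsorted and -0.06 (SE 0.25) in sorted cells. The first was 0.38 with scaling by the median of ratios and 0.37 with quantile normalization. Leaving out single libraries gave -0.0583 to 0.13 for the first and -0.36 to 0.17 for the second, so their signs are not settled. The test of the difference between those responses gave -0.10 (SE 0.36, limma adjusted p = 0.864). In bulk RNA, fewer cells that express a gene and less of its RNA per cell cannot be told apart.

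Markers of several cell types also differed between sorted and unsorted cells. Of the 10 hepatocyte and hepatoblast markers tested, 5 were called lower in SN than in UN and 1 higher (Afp), and 2 lower in SH than in UH and 1 higher (Afp). Among them Dlk1 was at least 13.5 TPM in the unsorted libraries and at most 1.61 TPM in the sorted ones. Of 7 leukocyte markers 4 were tested, and only Cd68 was called, higher in sorted cells at both oxygen levels. Its means were 3.09 TPM in UN and 7.88 in SN, and 13.4 in UH and 53.9 in SH. In normoxia the call (1.10) ended without SN replicate 3 (0.91). Lyz2 had lower means in sorted cells (1.26 TPM in UN and 0.549 in SN, and 1.18 in UH and 0.530 in SH) without a call. Csf1r was not called there either, and Ptprc and Adgre1 reached at most 0.121 and 0.0208 TPM. Of the lymphatic endothelial markers Pdpn was called lower at both, with 2.53 TPM or more in the unsorted libraries and at most 0.0974 TPM in the sorted ones. Of 14 markers of fibroblasts, pericytes and smooth muscle 12 were tested, of which 6 were called lower in SN than in UN with none higher, and 7 lower in SH than in UH with 1 higher. Their summed TPM was 5268, 1348 and 1200 in UN, 4987, 7244 and 6371 in UH, 204, 203 and 213 in SN, and 73.9, 80.1 and 59.4 in SH. The collagen gene Col1a1 was the most abundant of them in UH, at 2478, 3556 and 3119 TPM. Of the pericyte and smooth muscle markers, Rgs5, Cspg4 and Myh11 reached at most 0.472 TPM in any library, while Acta2 reached 845 TPM, Tagln 135 TPM, Pdgfrb 74.6 TPM and Des 11.3 TPM. The part of any of these cells or transcripts in the Edn1 result was not tested.

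Ece1, the enzyme that cleaves the endothelin precursor, was expressed in every library (chr4:137862237-137965229, +, GRCm38, GENCODE M21). It measured 33.2, 66.9 and 50.7 TPM in UN and 16.9, 20.3 and 23.8 TPM in UH. It measured 33.3, 26.2 and 27.6 TPM in SN and 34.4, 39.0 and 25.2 TPM in SH. Among unsorted cells the hypoxic libraries lay below the normoxic ones, while among sorted cells the oxygen groups overlapped.

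The described hypoxia differences of Ece1 were -1.22 (SE 0.24) in unsorted cells and 0.16 (SE 0.24) in sorted cells. The first fell short of 1 without UN replicate 2 (-0.99), with scaling by the median of ratios (-0.88) and with quantile normalization (-0.92). The difference between these responses was tested and called, at 1.38 (SE 0.33, limma adjusted p = 0.0135). It is built from both hypoxia contrasts, which had a part in the choice of the members through Adm, and its p carries that limit. The adjusted p ranged from 0.00159 to 0.0397 over 19 alternatives, and without UN replicate 1 the difference was 1.64. The median gene tested had a difference of 0.25 between the responses, and scaling each library by the median of ratios left a difference of 1.05 for Ece1. Neither SN against UN, at -0.72 (SE 0.24, limma adjusted p = 0.0338), nor SH against UH, at 0.66 (SE 0.24, limma adjusted p = 0.0432), reached the required size. Without UN replicate 1 the value for SN against UN was -0.99, still short of that size, and the SN mean was 0.49 times the UN mean.

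Ednra, the endothelin receptor of contractile cells, was low in all groups and lowest in hypoxia (chr8:77663031-77724464, -, GRCm38, GENCODE M21). It measured 3.40, 2.05 and 1.93 TPM in UN and 1.47, 1.53 and 3.08 TPM in SN. It measured 0.218, 0.369 and 0.297 TPM in UH and 0.267, 0.259 and 0.302 TPM in SH. All 6 hypoxic libraries lay below all 6 normoxic libraries, and sorted and unsorted cells overlapped at each oxygen level. The UN mean was 8.36 times the UH mean and the SN mean 7.34 times the SH mean. On the compressed scale the described differences were -1.40 (SE 0.21) and -1.21 (SE 0.21), the second being -0.97 without SN replicate 3.

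No call was made for Ednra by limma. SN differed from UN by -0.21 (SE 0.21, limma adjusted p = 0.482), or by -0.0234 without UN replicate 1. SH differed from UH by -0.02 (SE 0.21, limma adjusted p = 0.959). The difference between the hypoxia responses was 0.19 (SE 0.29, limma adjusted p = 0.666), or 0.00406 without UN replicate 1. Ednrb, the receptor typical of endothelial cells, was listed at 0 in 10 libraries, at 0.0371 TPM in UN replicate 3 and at 0.0112 TPM in SN replicate 3. It was the only member below the filter on low values, which left 8 of 9 for the fits.

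The order of the members by level differed between groups. In UN the means ran from Ece1 (50.2 TPM) to Edn1 (20.2 TPM) and Adm (8.30 TPM), but without UN replicate 1 Adm, at 1.34 TPM, came below Ramp3 (3.90 TPM) and Ednra (1.99 TPM). The Adm libraries overlapped those of Edn1 through replicate 1 alone. In UH the order was Adm (130 TPM), then Edn1 (20.9 TPM) and Ece1 (20.3 TPM), whose libraries overlapped. In SN Ece1 (29.0 TPM) was followed by Edn1 (7.66 TPM) and Ramp3 (4.11 TPM), whose libraries overlapped. In SH Ece1 (32.9 TPM) and Adm (23.2 TPM) overlapped, Adm reached Edn1 (7.19 TPM) through SH replicate 3, and Edn1 and Ramp3 (5.08 TPM) overlapped too.

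Counted over the 7 members tested other than Adm, 1 was called lower in SN against UN (Edn1) and none higher, where 7.57% of all genes tested were called lower and 3.2% higher. By an unadjusted limma p under 0.05 alone, 1 of these members was higher in that contrast and 4 were lower, where 16.7% of all genes were higher and 25.9% lower. In SH against UH, 1 was called lower (Edn1) and 1 higher (Ramp3), against 5.35% and 7.65% of all genes. By the unadjusted limma p, 2 were higher and 1 was lower there, where 33.9% of all genes were higher and 15.9% lower. In the difference between responses, 1 was called higher in sorted cells (Ece1), against 8.08% of all genes higher and 2.18% lower. By the unadjusted limma p, 1 was higher and 1 lower in that difference, against 28.7% and 7.6% of all genes. That difference is built from both contrasts behind the choice, which used Adm. With so few genes these counts do not set the members apart from the rest. In the contrasts behind the choice, 1 member was past the thresholds upward and 2 downward in UH against UN, where 5.46% and 11.8% of all genes were, and 1 upward and 1 downward in SH against SN, where 7.47% and 5% were. Nothing is read from the last counts. Contrasts that share a group share its libraries.

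**Figure D2:**
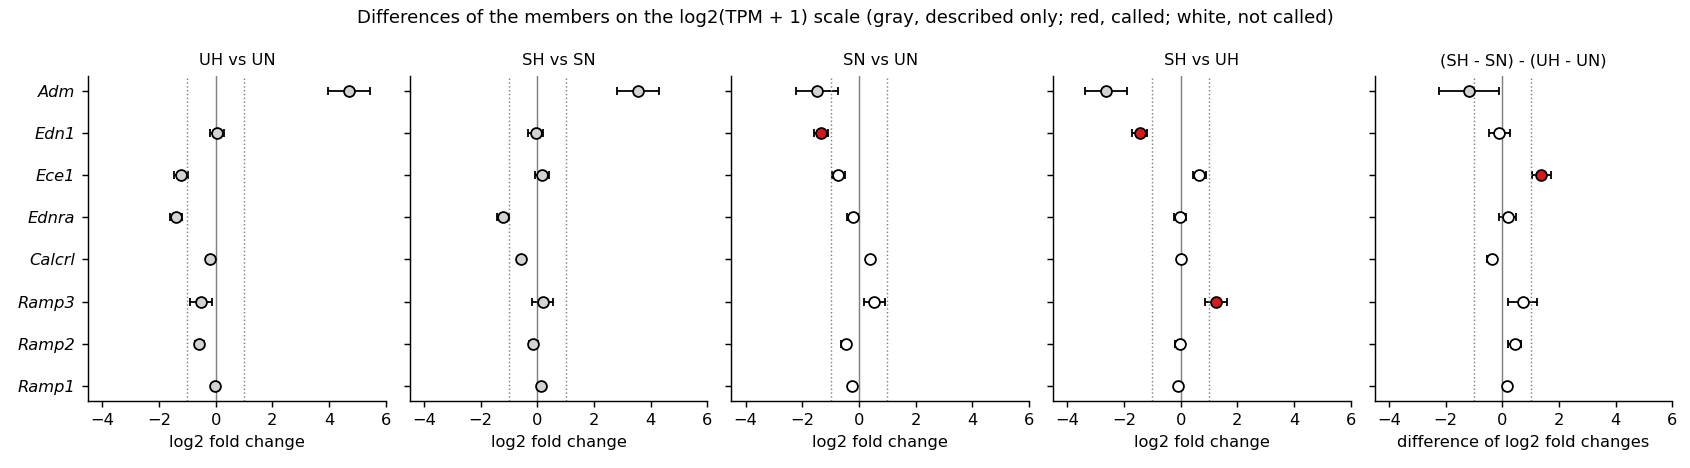
Log2 fold changes (x axis, log2(TPM + 1) scale) of the 8 members above the filter in 4 contrasts, and in the last panel the response of sorted minus that of unsorted cells, with bars of 1 SE; gray points are described only, red points were called and white points were not, and dotted lines mark the size of 1. Edn1 lies at -1.34 in SN vs UN and at -1.45 in SH vs UH, and Ece1 lies at 1.38 in the last panel.

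The wider adrenomedullin and calcitonin family was followed in 11 further genes, of which 8 passed the filter. Of all genes tested, limma called 5.46% higher and 11.8% lower in UH against UN, 7.47% and 5% in SH against SN, 3.2% and 7.57% in SN against UN, and 7.65% and 5.35% in SH against UH. In UH against UN, 1 of the 8 was called higher and 2 lower (median log2 fold change 0.09, against -0.19 over all genes tested). In SH against SN 1 was higher and 2 were lower, with a median of -0.06 against 0.03. In SN against UN 1 was higher and 1 lower (0.17 against -0.06), and in SH against UH 1 was higher and 2 were lower (-0.28 against 0.17).

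Adm2, which encodes the related peptide intermedin, was abundant in UH alone among the groups. It measured 1.69, 0.161 and 0.618 TPM in UN, 52.0, 45.0 and 44.8 TPM in UH, and 0.412, 0.669 and 0.763 TPM in SH, and it was listed at 0 in every SN library. The UH libraries exceeded all others by far. Its log2 fold change was 4.81 (SE 0.25, limma adjusted p = 7.41e-08) in UH against UN and -4.90 (SE 0.25, limma adjusted p = 7.01e-08) in SH against UH. The response of sorted minus that of unsorted cells was -4.12 (SE 0.35, limma adjusted p = 3.25e-05), a value that depends on the pseudocount because SN was listed at 0.

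Ackr3, an atypical receptor known to scavenge adrenomedullin, was lower in sorted cells. It measured 28.5, 23.3 and 28.4 TPM in UN, 29.7, 34.7 and 37.0 in UH, 5.52, 4.26 and 4.62 in SN, and 15.5, 15.2 and 10.6 in SH. No groups overlapped. It was called lower in SN than in UN at -2.26 (SE 0.16, limma adjusted p = 1.32e-06) and in SH than in UH at -1.25 (SE 0.16, limma adjusted p = 9.32e-05), and higher in SH than in SN at 1.33 (SE 0.16, limma adjusted p = 6.30e-05).

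Mme, the peptidase neprilysin that degrades vasoactive peptides, was called lower in hypoxia, by -1.37 (SE 0.22) in unsorted and by -2.25 (SE 0.22) in sorted cells. Pam, the enzyme that amidates adrenomedullin, averaged 61.2 ± 16.1 TPM in UN, 90.8 ± 7.86 in UH, 80.5 ± 2.07 in SN and 60.4 ± 2.47 in SH (SD, n = 3) and was not called in any contrast. Crcp, a component of the calcitonin gene-related peptide receptor complex, averaged between 35.2 and 37.2 TPM in the 4 groups and was not called either.

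Of 10 further endothelin genes 7 were tested, and limma called none in either hypoxia contrast. At an unadjusted limma p under 0.05, 1 was higher and 3 were lower in UH against UN (15% and 37.7% of all genes), and 1 was higher and 2 were lower in SH against SN (25.5% and 22.9%). Mmp2, a gelatinase that can also cleave big endothelin, was the only call and was lower in sorted cells. It measured 48.1, 16.7 and 16.9 TPM in UN, 27.2, 32.4 and 33.0 in UH, 2.96, 3.09 and 5.74 in SN, and 3.23, 3.90 and 2.97 in SH. The log2 fold change was -2.39 (SE 0.34, limma adjusted p = 0.000285) in SN against UN, or -1.90 without UN replicate 1, and -2.87 (SE 0.34, limma adjusted p = 5.42e-05) in SH against UH. The list's medians in these contrasts were -0.10 and 0.08, against -0.06 and 0.17 over all genes. In UH against UN and SH against SN they were -0.05 and -0.14, against -0.19 and 0.03. Furin, a protease that makes the first cut of the endothelin precursor, averaged 62.8 ± 4.34 TPM in UN, 45.7 ± 7.58 in UH, 101 ± 5.60 in SN and 71.4 ± 5.96 in SH (SD, n = 3) without a call. Pcsk7, a protease of the same family, averaged between 10.9 and 17.6 TPM.

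The receptors of both peptides act through G proteins, and 24 of 28 listed G proteins and effectors were tested. In UH against UN 2 were called higher and 4 lower, or 8.33% and 16.7% against 5.46% and 11.8% of all genes (median -0.31 against -0.19 over all genes). In SH against SN 1 was higher and 1 lower (-0.19 against 0.03). SN against UN and SH against UH each had 1 higher and 1 lower (4.17% each), with medians of 0.08 and 0.11 against -0.06 and 0.17. Gnas, which encodes the stimulatory subunit used by adrenomedullin receptors, was the most abundant, between 1035 and 1394 TPM, and was not called. Gnai2, an inhibitory subunit, ranged from 343 to 530 TPM, also without a call.

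Within the list, Adcy3, an adenylyl cyclase that makes cAMP, differed most between sorted and unsorted cells. It measured 7.04, 11.1 and 9.44 TPM in UN, 20.3, 29.2 and 28.0 in UH, 0.137, 0.0479 and 0.161 in SN, and 0.163, 0.165 and 0.299 in SH. The log2 fold change was -3.18 (SE 0.19, limma adjusted p = 2.77e-07) in SN against UN, -4.46 (SE 0.19, limma adjusted p = 1.44e-08) in SH against UH and 1.40 (SE 0.19, limma adjusted p = 8.08e-05) in UH against UN. Rapgef3, the cAMP sensor Epac, went the other way. It measured 15.0, 8.28 and 8.10 TPM in UN, 2.85, 3.72 and 3.23 in UH, 40.9, 40.0 and 35.8 in SN, and 25.1, 23.8 and 10.6 in SH. It was called higher in SN than in UN (1.85, SE 0.29) and in SH than in UH (2.20, SE 0.29), and lower in hypoxia in unsorted (-1.38, SE 0.29) and sorted cells (-1.02, SE 0.29). The last call ended without SN replicate 1 (-0.99), without SH replicate 3 (-0.65) and with quantile normalization (-0.90).

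Arrb1, a β-arrestin that desensitizes such receptors, was called higher in hypoxia in unsorted (2.02, SE 0.23) and sorted cells (1.56, SE 0.23), from a mean of 9.01 TPM in UN to 40.6 in UH and from 13.1 in SN to 41.4 in SH. Plcb1, a phospholipase downstream of endothelin receptors, was called lower in UH than in UN (-1.42, SE 0.23). Prkaca, the catalytic subunit of protein kinase A, was called lower in UH than in UN (-1.26, SE 0.11), though scaling by the median of ratios left it at -0.91. Gna12, another α subunit, was called lower there too (-1.09, SE 0.10), but not with scaling by the median of ratios (-0.75) or quantile normalization (-0.79).

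Other vasoactive peptide systems gave 13 tested genes of 29. In UH against UN 3 were called higher and 2 lower, or 23.1% and 15.4% against 5.46% and 11.8% of all genes (median -0.14). In SH against SN 1 was higher and 1 lower (0.33), in SN against UN 1 and 2 (-0.25), and in SH against UH 1 and 2 (0.02). The medians over all genes in these contrasts were -0.19, 0.03, -0.06 and 0.17. Apln, the ligand apelin, measured 6.41, 6.54 and 6.68 TPM in UN, 37.1, 45.0 and 46.8 in UH, 4.45, 4.54 and 1.89 in SN, and 8.00, 7.91 and 4.84 in SH. It was called higher in UH than in UN (2.54, SE 0.25) and lower in SH than in UH (-2.50, SE 0.25). Its receptor gene Aplnr, averaging 0.564 TPM in UN, 2.52 in UH, 0.312 in SN and 2.76 in SH, was called higher in both hypoxia contrasts (1.17, SE 0.14, and 1.51, SE 0.14).

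Agt, the precursor of angiotensin, was called lower in hypoxia in unsorted (-2.61, SE 0.22) and sorted cells (-3.21, SE 0.22). It averaged 13.6 ± 4.37 TPM in UN, 1.32 ± 0.135 in UH, 17.8 ± 1.79 in SN and 1.05 ± 0.305 in SH (SD, n = 3). Npr2, a natriuretic peptide receptor, measured 10.4, 25.9 and 24.3 TPM in UN, 6.58, 8.42 and 8.22 in UH, 4.51, 4.33 and 2.74 in SN, and 8.17, 8.86 and 4.70 in SH. It was called lower in SN than in UN (-2.05, SE 0.32) and in UH than in UN (-1.19, SE 0.32). The second call ended without UN replicate 2 (-0.97), with scaling by the median of ratios (-0.86) and with quantile normalization (-0.89). Npr3, which clears natriuretic peptides, was called higher in UH than in UN (1.70, SE 0.30).

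The remaining calls in that list were between sorted and unsorted cells. Bdkrb2, a bradykinin receptor, was called lower in SN than in UN (-1.72, SE 0.35) and in SH than in UH (-1.28, SE 0.35), with 1.75, 6.68 and 6.09 TPM in UN and at most 1.20 TPM in any sorted library. Nts, which encodes neurotensin, was called higher in SN than in UN (2.03, SE 0.18) and in SH than in UH (1.67, SE 0.18), with 4.85, 3.71 and 5.27 TPM in SN and at most 0.605 TPM in any unsorted library.

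The calls of these other genes in SN against UN and in UH against UN also held without UN replicate 1. The values that moved most were Bdkrb2 (-2.19) and Npr2 (-2.45) in SN against UN and Npr2 (-1.585) and Npr3 (2.085) in UH against UN, besides Mmp2.

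**Figure D3:**
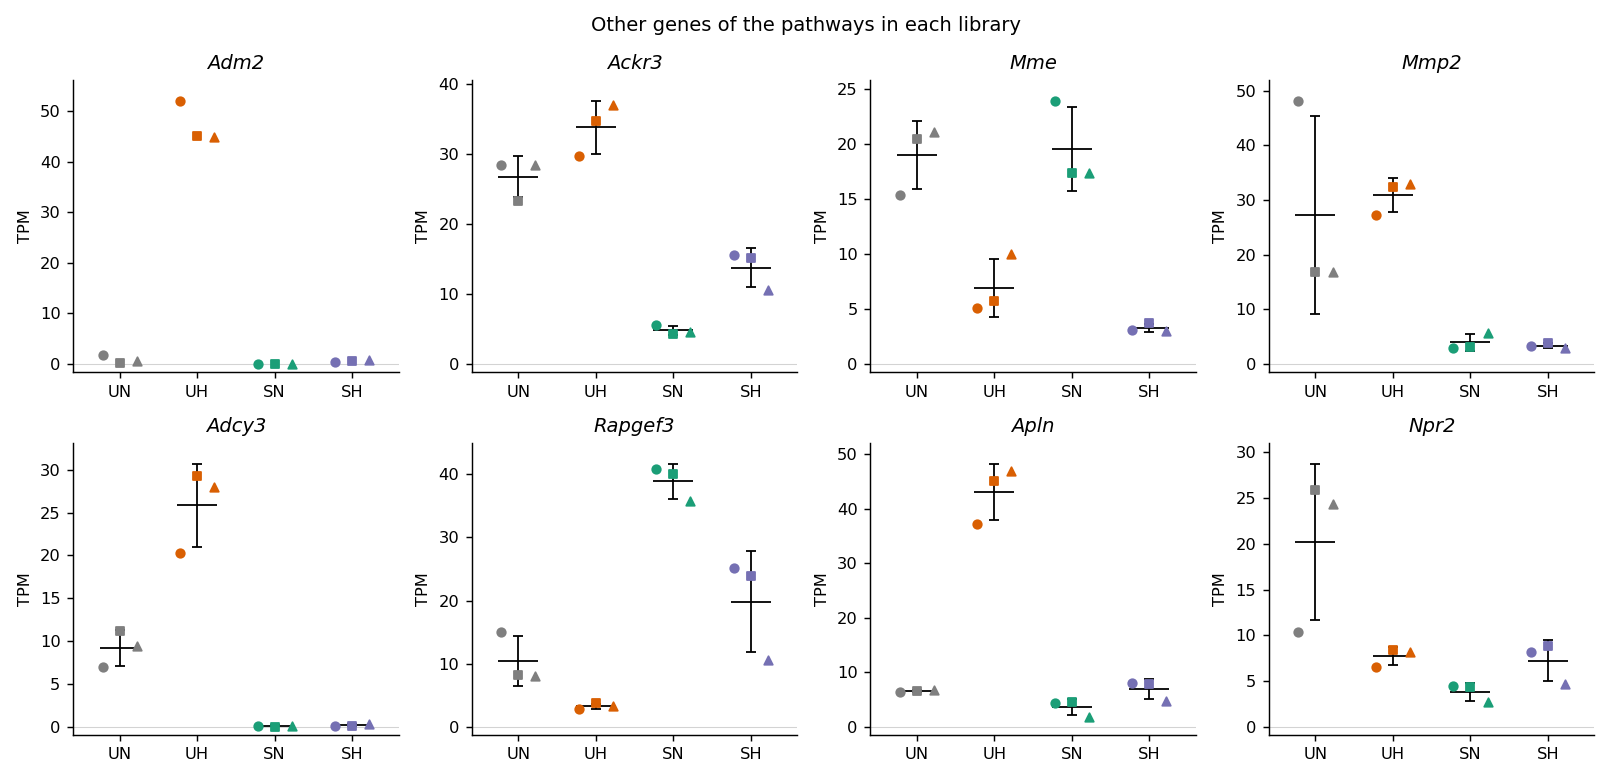
TPM of 8 of the other genes in the 12 libraries, by group (x axis) on a linear axis for each gene, picked for display after their values were seen; circles, squares and triangles are replicates 1, 2 and 3, and bars show the mean and SD where no library was listed at 0. Adm2 is between 44.8 and 52.0 TPM in UH and at most 1.69 TPM elsewhere, and Adcy3 is at most 0.299 TPM in the sorted libraries.

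Genes with the pattern most like each member's were ranked by Pearson's r of log2(TPM + 1) over the 12 libraries among 13567 genes with a mean of at least 1 TPM. The 12 points are 4 groups of 3, so r mostly reflects the group means. For Adm the highest were Rap2a (r = 0.984), Prdx5 (0.983), Elmo1 (0.979), Cdhr1 (0.978) and Ndrg2 (0.975). For Edn1 they were Ppp1r15b (0.992), Pdgfd (0.982), Sept3 (0.963), Fhl1 (0.960) and Zfp652 (0.958). Pdgfd, for example, averaged 8.74 TPM in UN, 9.90 in UH, 1.96 in SN and 1.22 in SH. For Ednra the highest were Fdft1 (0.972), Hmgcs1 (0.971), Nsdhl (0.970), Cyp51 (0.969) and Mgp (0.968). For Ece1 they were Cep72 (0.968), Bahd1 (0.957), Ttpal (0.950), Asphd2 (0.949) and Mfn1 (0.943). Ramp3 had weaker neighbors, Tmem80 (0.930), 1500015A07Rik (0.914), Cyth2 (0.913), Zfp444 (0.892) and 1700030K09Rik (0.881).

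Promoter sequences from RefSeq (GRCm38.p6) were tabulated for 8 members and searched over the 250 bases before each start. The letters searched were the cores of the hypoxia response element, ACGTG and GCGTG, on both strands (CACGT and CACGC on the other), where ACGTG overlaps the E-box CACGTG. Of 32851 promoters, 16.6% held ACGTG, 28.2% held GCGTG and 38.6% held either. At least 2 matches were held by 16.7% of promoters and at least 3 by 6.58%. Adm, Ramp3 and Ednrb held 2, 2 and 1 matches, and Ece1 had 4 tabulated promoters with 1, 1, 4 and 0. The windows of the first 2 of these overlap and share their match, and 2 of the 4 matches are both strands of 1 CACGTG. The windows of Edn1, Ednra, Calcrl and Ramp1 held none of these letters. The windows of the ligand genes are shown because Adm and Adm2 were high in UH while the Edn1 libraries of UN and UH overlapped. They lie at chr7:110627407-110627656 (+) for Adm, chr15:89322470-89322719 (+) for Adm2 and chr13:42301226-42301475 (+) for Edn1, with matches in capitals.
Adm: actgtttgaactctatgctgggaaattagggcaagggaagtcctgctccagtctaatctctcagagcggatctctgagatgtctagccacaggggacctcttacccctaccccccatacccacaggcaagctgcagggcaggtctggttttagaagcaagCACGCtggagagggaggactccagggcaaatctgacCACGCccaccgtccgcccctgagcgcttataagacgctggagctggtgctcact
Adm2: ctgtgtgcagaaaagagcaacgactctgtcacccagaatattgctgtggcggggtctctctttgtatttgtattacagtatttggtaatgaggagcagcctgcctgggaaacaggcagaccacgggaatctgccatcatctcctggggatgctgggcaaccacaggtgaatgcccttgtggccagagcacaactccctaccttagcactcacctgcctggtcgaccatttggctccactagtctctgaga
Edn1: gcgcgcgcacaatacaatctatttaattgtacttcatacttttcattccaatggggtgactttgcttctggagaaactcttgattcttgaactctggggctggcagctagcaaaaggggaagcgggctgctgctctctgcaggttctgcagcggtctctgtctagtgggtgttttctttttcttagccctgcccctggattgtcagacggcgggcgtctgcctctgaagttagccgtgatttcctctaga
The matches of Adm began 90 and 54 bases before the start, both as CACGC, and the windows of Adm2 and Edn1 held none. These are matches of letters, not sites shown to be bound.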

How the data were processed

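Per the labels and the study's methods, RNA of 12 samples was made into stranded mRNA libraries and sequenced as paired ends. The authors processed the reads with nf-core/rnaseq 3.12.0, and the deposited values are Salmon gene TPM. The submitters' processing notes give the build as mm10, and the annotation is not given in the sources used here. TPM sum to 1000000 per library and keep no depth, so no counting error is given. The 18909 genes that averaged 0.1 TPM or more were fitted with limma 3.58.1 (R 4.3.3, trend) on log2(TPM + 1), with 1 mean per group, after the script had been tested on simulated data. The study's count test was not used because TPM are not counts. The 9 members and the other gene lists were chosen with earlier results of these data known. All members are named; of each other list, genes called in at least 1 contrast and the 3 with the highest mean TPM. Coordinates are from GENCODE M21; 98.8% of gene IDs matched. Alternatives changed the pseudocount, filter, scaling, trend, block and samples. A gene counted in the adrenomedullin and calcitonin family is not reported here.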

Additional observations from a re-analysis of the deposited data

Results flagged for a closer look

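For 8 of 59 genes tested (4 higher and 4 lower in sorted cells, 6.78% each) the response to hypoxia differed between sorted and unsorted cells by the limma test of that difference, against 8.08% higher and 2.18% lower of all genes tested. Values are the log2 response of sorted cells minus that of unsorted cells. Among the members tested this was Ece1, at 1.38, from -1.22 in unsorted to 0.16 in sorted cells. Its test is built from both hypoxia contrasts, which are only described for the members. The difference was below 0 for Adm2 (-4.12), Apln (-1.73), Npr3 (-1.30) and Adcy3 (-1.28), which were called higher in UH than in UN. It was above 0 for Npr2 (1.93) and Plcb1 (1.24), which were called lower in UH than in UN, and for Ackr3 (1.01), which was called higher in SH than in SN. The calls of Ece1, Adm2, Apln and Npr2 held under all 19 alternatives. That of Adcy3 ended under 1 of them, the pseudocount of 0.1 (-0.95). That of Plcb1 ended under 7, with median-of-ratios scaling (0.97), with quantile normalization (0.82) and, at 1.14 to 1.18, without UN replicate 2 or 3, SN replicate 2, or SH replicate 1 or 2. That of Ackr3 ended under 9, with the same scalings (0.67 and 0.62) and, at 0.92 to 0.99, without UN replicate 1 or 3, UH replicate 1, SN replicate 2 or 3, or SH replicate 1 or 2. That of Npr3 ended under 12: the pseudocount of 0.1, no filter on low values, the replicate block and, at -1.37 to -1.07, without each library but UN replicate 1, UH replicate 1 and SN replicate 3.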

How the results depend on the processing

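Of 404 values for the tested member differences, Adm left out, 386 kept direction and call; the causes of the changes were not tested. The calls were 1, 2 and 1 in SN against UN, SH against UH and the difference of responses. Leaving out single replicates gave 1 to 1, 1 (Ramp3 lost without UH replicate 2 or SH replicate 1 or 3) to 2, and 1 to 2 (without UN replicate 1, which added Ramp3 at 1.20). Members past the thresholds in SH against SN went from 2 to 1 without SN replicate 3 and to 3 with the pseudocount of 0.1 (Calcrl added at -1.60), and from 3 to a range of 2 to 4 in UH against UN. The pseudocount of 0.1 gave 2 calls in SN against UN (Ramp1 added at -1.44) and turned Ramp2 in SH against UH to 0.0124. Median-of-ratios scaling turned Calcrl in SH against UH to -0.0215. Quantile normalization turned it to -0.0936, Ednra in SN against UN to 0.11 and the difference of its responses to -0.24. Leaving out replicates turned small values within these ranges: in SH against UH Calcrl -0.0320 to 0.0372, Ramp2 -0.12 to 0.12 and Ednra -0.0625 to 0.0216, and in the difference of responses Edn1 -0.40 to 0.13.

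Over all tested genes the UH against UN values had a median of -0.19 (log2), and 0.00 after median-of-ratios scaling. Over all genes, higher and lower calls in UH against UN were 1032 and 2222, 1564 and 1217 with that scaling and 1442 and 1341 with quantile normalization. In SH against UH they were 1447 and 1012, then 1021 and 1323, and 1089 and 1238; in SN against UN 606 and 1431, then 745 and 1255, and 842 and 1143; in the difference of responses 1527 and 412, then 901 and 782, and 774 and 744. The pseudocount of 0.1 raised the higher calls in UH against UN to 1580, in SH against SN from 1412 to 2854, in SN against UN to 990 with 2402 lower, and in SH against UH to 2810 with 1550 lower. Without UN replicate 1 the difference of responses had 636 lower calls.

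Replicate numbers did not pair the samples: over 18 same-number comparisons the correlation of deviations ran from -0.12 to 0.14. With a replicate block the member calls were 1, 2 and 1, and 3 and 2 past the thresholds in the hypoxia contrasts. Depth is unknown, so values below 1 TPM (Calcrl, Ramp1, Ramp2, Ednrb) carry no stated precision.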
